A study of Mus musculus with 80 samples.

Results

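Sequential chromatin immunoprecipitation (re-ChIP) pulls chromatin down with a first antibody, releases it and pulls it down again with a second one. In mouse embryonic stem cells (ESC) it was run in both antibody orders, H3K4me3 first and H3K27me3 first, with 1 library per order. These are 2 of the series' 80 samples and 2 of the 40 that hold a list of regions. The members are the 100 bp windows that the authors listed with a score of at least 1.0, which came to 29812 windows with H3K4me3 first and 41339 with H3K27me3 first. Windows that touch were merged into 8019 H3K4me3-first and 13248 H3K27me3-first domains, and joining both orders gave 14041 domains.

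H3K4me3 marks promoters and is placed by the COMPASS family of methyltransferases, of which MLL2 (gene Kmt2b) is one. H3K27me3 is placed by Polycomb repressive complex 2, which holds Suz12, and is bound up with Polycomb repressive complex 1, whose ubiquitin ligase is Ring1b. Promoters of developmental genes that carry both marks in stem cells are called bivalent. Separate ChIP experiments cannot tell whether both marks sit on the same chromatin fragment or in different cells, and re-ChIP addresses that question.

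The other samples used here were knockout (KO) and wild type (WT) cells of a C57Bl/6 line with the alleles Mll2F/F:CreERT2/+, grown without feeders in serum and LIF. KO cells had received 4-hydroxytamoxifen at 1e-06 M for 96 h and WT cells the carrier, so deletion and drug came together in every KO library. H3K4me3, H3K27me3, Suz12 and Ring1b were profiled once per genotype in each of 2 experiments, ATAC-seq (open chromatin) in 3 libraries per genotype, and MLL2, RNA polymerase II, H3K27ac, H3K36me3 and CTCF once per genotype. Experiment 2 used another H3K4me3 antibody than experiment 1 and a Drosophila spike-in. Catalytic-dead (CD) MLL2 cells and their WT, both V6.5, were kept on irradiated fibroblast feeders that were taken off by pre-plating, with 1 library per mark and genotype. The re-ChIP libraries came from the Mll2F/F:CreERT2/+ line, and their labels give no Mll2 status. The deposited name of the H3K4me3-first list carries the code that the design text gives to WT, and that of the H3K27me3-first list carries none, so the status of the second list is not known.

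The read depth behind every list is unknown, so intervals given here (exact Clopper-Pearson, 95%) cover counting error only, and neighbouring windows are not independent. WT cells were checked in their RNA, where 7 stem cell markers averaged 59.1 to 1293 FPKM, against at most 2.53 FPKM for 5 fibroblast markers and at most 1.13 FPKM for 6 markers of differentiated cells. Postn and Lum, defining markers of fibroblasts, were listed at 0 in both WT libraries. The targeted protein was checked in the peak lists, with 264 MLL2 peaks in KO and 11084 in WT. An MLL2 peak lay at 10 of the 14041 domains (0.071%) in KO and at 6277 (44.7%) in WT. Windows on chromosomes 1 to 19 and X were used.

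The first question was whether the order of the antibodies changes which chromatin is found. The orders had 18768 windows in common. These made up 63.0% (62.4 to 63.5) of the H3K4me3-first windows and 45.4% (44.9 to 45.9) of the H3K27me3-first windows, so the H3K27me3-first list was longer and a smaller share of it was matched. Over the windows of either order, 35.8% of 52383 were in both. With 1 library per order there is no replicate to set this difference against, and no test was made.

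Agreement followed the score. Among H3K4me3-first windows 45.0% (43.9 to 46.1) of those scored 1 to 1.25 and 90.4% (88.9 to 91.7) of those scored 3 or more were found in the other order. Among H3K27me3-first windows the shares were 23.9% (23.2 to 24.6) and 88.1% (86.5 to 89.5). The strongest windows were thus mostly found whichever antibody came first. The median score was 1.69 for shared and 1.32 for unshared H3K4me3-first windows, and 1.75 and 1.27 for H3K27me3-first windows. Whether the scores of the orders share a scale is not given in the sources used here, so score bins were read within each order and levels were compared by rank. Cuts at the same score in both orders, used further below, may therefore not be equally strict. Spearman's rho over the 18768 shared windows was 0.34, given as a description since neighbouring windows share signal.

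**Figure D1:**
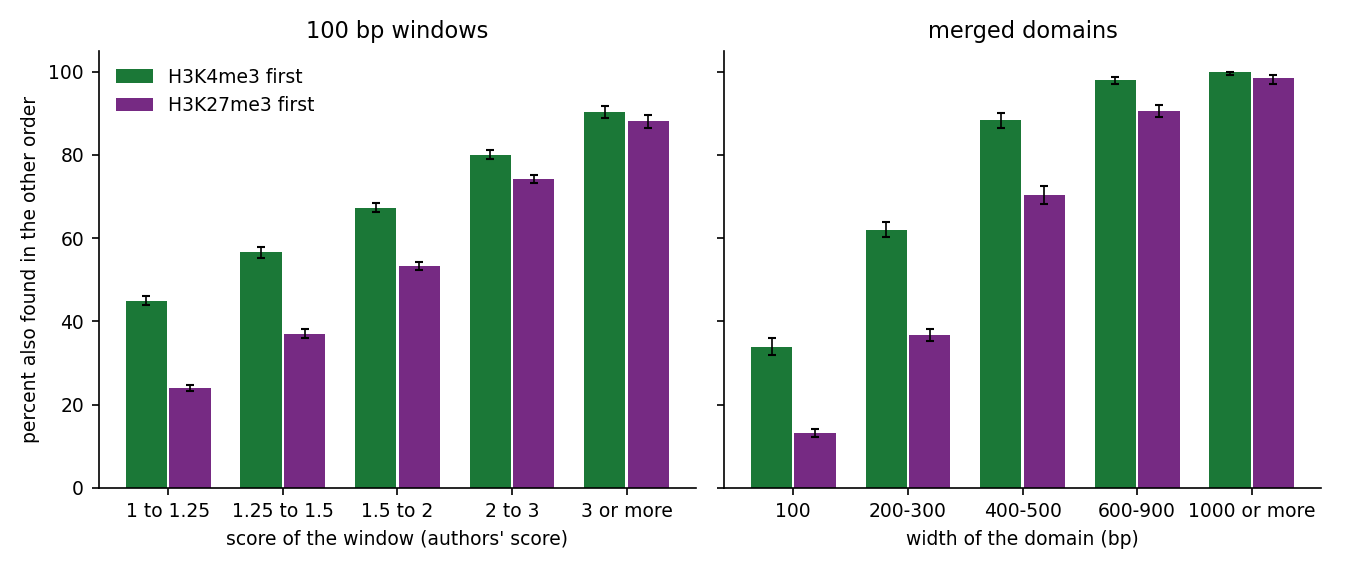
Percent of 100 bp windows by their score (left) and of merged domains by their width in bp (right) that were also found in the other antibody order, for H3K4me3 first (green) and H3K27me3 first (purple), with exact 95% intervals. Sharing climbs with score and width in both orders, to 90.4 and 88.1% of windows scored 3 or more and to 100 and 98.4% of domains of 1000 bp or more.

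Domains were short. H3K4me3-first domains had a median width of 300 bp (mean 372, longest 2700), against 200 bp (mean 312, longest 2300) for H3K27me3-first domains. A single window made up 27.6% of the H3K4me3-first and 37.0% of the H3K27me3-first domains. Of the H3K4me3-first domains 5333 (66.5%, 65.5 to 67.5) overlapped a domain of the other order, and of the H3K27me3-first domains 5492 (41.5%, 40.6 to 42.3) did. Width separated the matched from the unmatched. All 486 H3K4me3-first domains of 1 kb or more were matched, as were 562 of 571 H3K27me3-first ones (98.4%, 97.0 to 99.3). Of single-window domains 33.9% (31.9 to 35.9) of the H3K4me3-first and 13.2% (12.2 to 14.1) of the H3K27me3-first were matched. The order of the median widths depended on how windows were joined: it was 100 bp longer with H3K4me3 first when only touching windows were merged, equal when gaps up to 500 bp were bridged, and 100 bp shorter when gaps up to 1000 bp were.

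Joined over the orders, 5119 domains were found in both, 1995 with H3K4me3 first only and 6927 with H3K27me3 first only. Domains of both orders had a median width of 600 bp and those of a single order 100 bp, a contrast that the joining itself favours. In 4641 of the 5119 (90.7%) at least 1 window was the same in both orders, and in the others windows of the 2 orders only touched.

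The widest domain of both orders lay at chr5:118619201-118622500 (mm9, 3300 bp), with 2200 bp covered with H3K4me3 first and 2700 bp with H3K27me3 first. The next were chr10:119912101-119915000 and chr2:153353401-153356300 (2900 bp each), and chr12:56699201-56702000 and chr10:19569201-19572000 (2800 bp each). All 5 had WT peaks of H3K4me3 in both experiments, each with the authors' score of 3100, a value that recurs at strong peaks. They differed in the KO. The first 3 had a score of 3100 in both KO libraries too, while chr10:19569201-19572000 had 311 and 90.4 in KO, and chr12:56699201-56702000 had 150.4 in KO experiment 1 and no peak in KO experiment 2. Because so many strong peaks share the value 3100, it does not tell whether the signal at the first 3 changed. No gene is named at these places, because no annotation of mm9 was used here.

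Domains of a single order were much smaller. The widest with H3K4me3 first only were chr11:97011601-97012300, chr2:6021301-6022000 and chr2:31169501-31170200, each 700 bp. With H3K27me3 first only they were chr17:39982201-39983400 (1200 bp), chr3:51143601-51144700 (1100 bp) and chr11:69778701-69779700 (1000 bp). The chr17 domain stood apart, with a top score of 10.1 and a peak in 15 of the 38 peak lists, none of them MLL2, Ring1b or polymerase. The 15 included every ATAC list and no V6.5 list. The chr3 and chr11 domains had a peak in 31 and 21 lists. Of 100 kb bins, chr6:52100001-52200000 held most base pairs in domains, 12700 bp in 39 domains, of which 5800 bp were found with H3K4me3 first and 10500 bp with H3K27me3 first. The bin chr2:74500001-74600000 followed with 11600 bp in 41 domains, 5400 bp with H3K4me3 first and 10200 bp with H3K27me3 first. The other fullest bins were chr11:3000001-3100000 (1700 bp with H3K4me3 first and 10800 bp with H3K27me3 first), chr9:3000001-3100000 (5300 and 7300 bp) and chr14:122800001-122900000 (3000 and 7300 bp). All 5 held more H3K27me3-first sequence, as did the lists as a whole, which covered 2981.2 kb with H3K4me3 first and 4133.9 kb with H3K27me3 first. The chr6, chr2 and chr14 bins had WT peaks of both marks, MLL2, Suz12 and Ring1b. The chr11 bin had no H3K27me3, Suz12 or Ring1b peak in the C57Bl/6 line, though it had an H3K27me3 peak in V6.5 WT. The chr9 bin had no WT H3K4me3, MLL2, Suz12 or Ring1b peak, and it had a peak in every ATAC list and in no V6.5 list.

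The highest scores lay elsewhere. The 3 top windows of either order were the same, chr2:98507201-98507500 in steps of 100 bp, at scores of 153, 107.95 and 84.9 with H3K4me3 first and 171, 126 and 100.67 with H3K27me3 first. This place had a peak in only 13 of the 38 peak lists, none of them MLL2, Suz12 or Ring1b. The 13 included every ATAC list and no V6.5 list. Of all 14041 domains, 6 reached a score of 10. Each of the 6 had a peak in every ATAC list. All but chrX:166434601-166435900 lacked a peak in every V6.5 list. The cause of these high scores was not tested, so they are not read as the strongest bivalent chromatin.

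The second question was whether the domains lie where separate ChIP experiments find both marks. Nearly every H3K4me3-first domain had a WT H3K4me3 peak, 99.6% in experiment 1 and 99.6% in experiment 2. The same 32 domains lacked one in both experiments, and they lay at 9 places, with 21 of them at chr9:2999901-3038100. Whether the authors limited windows to peaks is not known. If they did, this share was set in advance, so it does not answer the question. H3K27me3 was found less often and less evenly. An H3K27me3 peak lay at 82.0% of H3K4me3-first domains in experiment 1 and at 39.4% in experiment 2, where the WT H3K27me3 list held 8080 peaks, against 19819 in experiment 1. Both marks were present at 81.6 and 39.1% (mean 60.4% ± 30.1, SD, n = 2 experiments), and at 86.5% with the V6.5 WT lists.

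H3K27me3-first domains had an H3K4me3 peak in 92.3 and 91.2% of cases and an H3K27me3 peak in 84.6 and 42.7%. Both marks were present at 78.2 and 37.7% of them (mean 58.0% ± 28.6, SD, n = 2 experiments) and at 81.9% with the V6.5 WT lists. The share was higher for H3K4me3-first domains in each of the 3 pairs of WT lists, and with 1 library per order this difference was not tested. It depended on list length and score. Cut to the same number of top-scoring windows, the means were 60.4% with H3K4me3 first and 65.1% with H3K27me3 first. They were 69.3 and 70.8% with windows scored at least 1.5, and 74.3 and 76.5% with at least 2, cuts that may not be equally strict in both orders. Domains with H3K27me3 alone were 0.31% of H3K4me3-first domains in each experiment and 6.39 and 4.96% of H3K27me3-first domains.

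The classes showed this more sharply. Both marks were found at 91.6 and 51.0% of the domains of both orders, at 53.0 and 15.6% of those with H3K4me3 first only, and at 65.6 and 27.2% of those with H3K27me3 first only. H3K4me3 alone was found at 46.7 and 84.1% of the domains with H3K4me3 first only. H3K27me3 alone was found at 11.9 and 9.17% of the domains with H3K27me3 first only, against 0.39% in each experiment at domains of both orders. The shares of domains with only the mark of the first antibody were thus higher in the single-order classes, by more than the counting intervals. This was not particular to the first antibody. H3K4me3 alone was at 20.1 and 56.4% of the domains with H3K27me3 first only, more than H3K27me3 alone. At domains of both orders H3K4me3 alone was at 7.97 and 48.5%. Wider domains have more chance to touch a peak. In windows of equal width both marks were again most frequent where the orders met, at a mean of 73.8%. The single-order classes lay close together, at 57.4% with H3K4me3 first only and 55.2% with H3K27me3 first only. These windows, 11044 and 22571 in number, also lie inside domains of both orders. The single-order domains covered only 343.3 and 1250.3 kb, so their own windows were not compared at equal width.

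**Figure D2:**
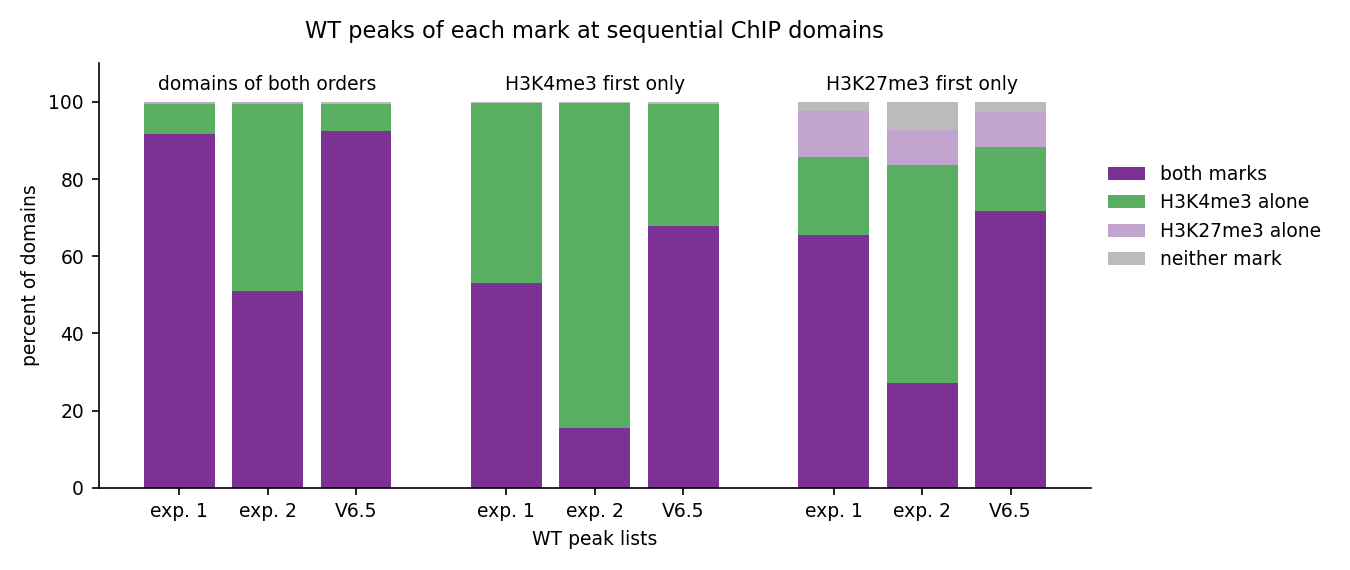
Percent of domains with WT peaks of both marks, of H3K4me3 alone, of H3K27me3 alone and of neither, for domains of both orders, of H3K4me3 first only and of H3K27me3 first only, in experiments 1 and 2 and in V6.5 cells. H3K27me3 alone is visible only in the third group, at 11.9, 9.17 and 8.96%, and experiment 2 has fewer domains with both marks in every group.

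Seen from the WT peaks, a larger share of bivalent regions than of regions with a single mark held a domain. A bivalent region is here a WT H3K4me3 peak that overlaps a WT H3K27me3 peak of the same experiment. Of all WT H3K4me3 peaks, 12.9% held an H3K4me3-first domain in experiment 1 and 13.9% in experiment 2, and 16.0 and 17.1% held an H3K27me3-first domain. Of 9754 bivalent regions in experiment 1, 50.9% (49.9 to 51.8) held an H3K4me3-first and 63.2% (62.2 to 64.1) an H3K27me3-first domain. Of 4290 in experiment 2, 71.9% (70.6 to 73.3) and 83.3% (82.1 to 84.4) did. Both orders met at 46.1 and 68.5% of bivalent regions. Which class held most of the regions found depended on the experiment. In experiment 1, 6621 bivalent, 1095 H3K4me3-only and 131 H3K27me3-only regions held a domain of either order, and in experiment 2, with its shorter H3K27me3 list, 3720, 3954 and 179 did.

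Among regions with a single mark the shares were smaller. H3K4me3 peaks without H3K27me3 held an H3K4me3-first domain in 1.74% of 33307 cases in experiment 1 and 6.95% of 35630 in experiment 2, and an H3K27me3-first domain in 2.20 and 9.18%. H3K27me3 peaks without H3K4me3 held an H3K4me3-first domain in 14 of 8872 cases in experiment 1 (0.16%) and 14 of 3023 in experiment 2 (0.46%). They held an H3K27me3-first domain in 131 (1.48%) and 179 cases (5.92%). None of the 14 lacked the other order. In V6.5 WT lists the bivalent shares were 47.1 and 57.8%, and H3K27me3 alone gave 1 H3K4me3-first domain among 10722 regions.

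The windows sat at the middle of H3K4me3 peaks. At the centre of the 9754 bivalent H3K4me3 peaks of experiment 1, 26.5% had an H3K4me3-first and 30.5% an H3K27me3-first window, and 1000 bp towards lower coordinates 3.19 and 6.00% did. The median distance from the centre was 312 bp for H3K4me3-first and 367 bp for H3K27me3-first windows, which thus lay a little further out. Experiment 2 gave 320 and 374 bp in that order. Around the 10947 H3K27me3 peaks that overlap H3K4me3 the profile was low and broad: 9.50% of the centres had an H3K4me3-first and 13.2% an H3K27me3-first window, and the median distances were 674 and 666 bp. Centres of WT MLL2 peaks at bivalent regions were the most often covered of the 3, at 40.1 and 43.2%, with median distances of 282 and 302 bp. At bivalent ATAC peaks of WT replicate 2, the 1 ATAC library profiled, 22.7 and 23.8% had a window at the centre, and the highest shares, 23.6 and 25.6%, lay 100 and 200 bp away.

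**Figure D3:**
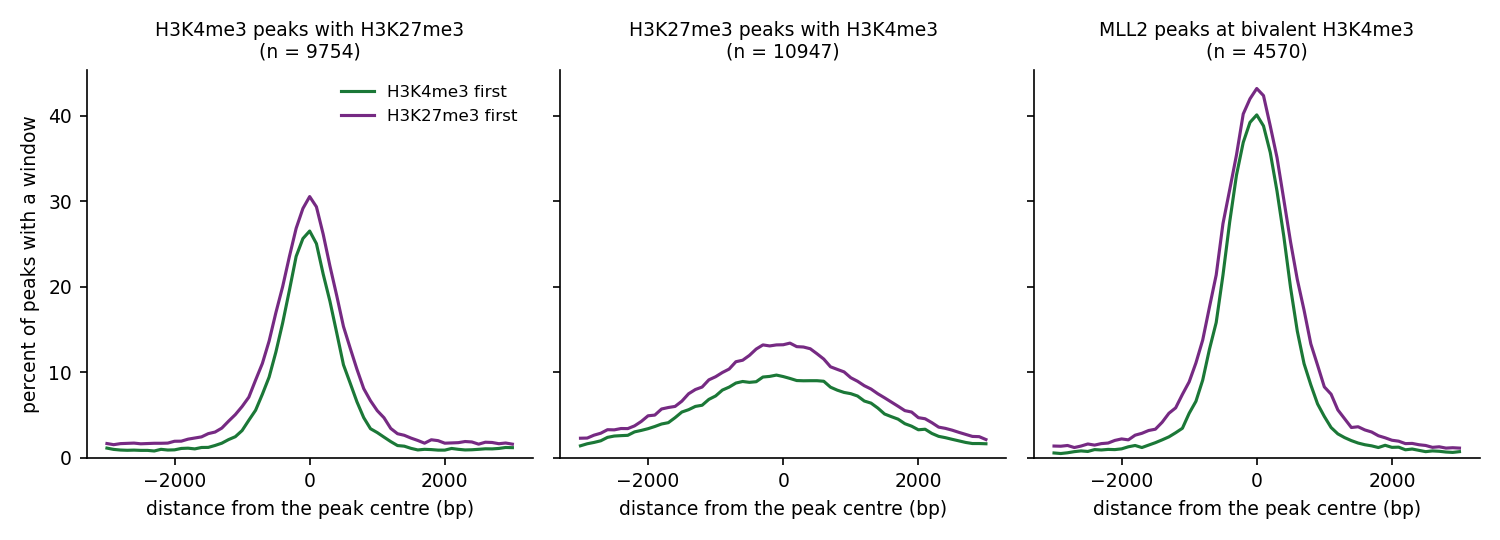
Percent of experiment 1 WT peaks with a window at each distance (bp) from the peak centre, for H3K4me3 peaks that overlap H3K27me3, H3K27me3 peaks that overlap H3K4me3 and MLL2 peaks at bivalent H3K4me3, with H3K4me3 first in green and H3K27me3 first in purple. Windows gather at the centres of H3K4me3 peaks (26.5 and 30.5%) and of MLL2 peaks (40.1 and 43.2%) and spread broadly over H3K27me3 peaks.

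Other WT factors were set beside the classes, using windows of equal width. MLL2 had a peak at 70.9% of the windows of both orders, 59.2% of those with H3K4me3 first only and 43.6% of those with H3K27me3 first only. The Polycomb proteins were also highest where both orders met. In the same order of classes, experiment 1 had Suz12 at 91.5, 74.3 and 66.1% of windows and experiment 2 had it at 95.7, 82.8 and 77.9%. For Ring1b the shares were 98.2, 92.3 and 90.7% in experiment 1. In experiment 2, whose Ring1b list held 2242 peaks, they were 56.6, 36.7 and 32.1%. At whole domains both proteins were again highest where the orders met, but the single-order classes changed places, with Suz12 in experiment 1 at 42.7% with H3K4me3 first only and 50.8% with H3K27me3 first only.

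Polymerase phosphorylated at serine 5, the form that starts transcription, was at 92.7% of the windows of both orders, 82.7% of those with H3K4me3 first only and 77.4% of those with H3K27me3 first only. Marks of active transcription were low and, in windows, lowest where the orders met. RPB1, the largest polymerase subunit, was at 19.8, 22.4 and 26.3%, H3K27ac, found at active promoters and enhancers, at 7.07, 9.31 and 11.8%, and H3K36me3, which follows elongation, at 1.45, 1.90 and 2.65%. At whole domains the single-order classes, both of median width 100 bp, ranked the other way. RPB1 was at 26.04% of the domains of both orders, 35.99% with H3K4me3 first only and 21.8% with H3K27me3 first only. H3K27ac was at 9.90, 18.3 and 10.2% in that order. Domain and window classes are different sets of sequence, since many single-order windows lie inside domains of both orders. In windows, the insulator protein CTCF was at 19.5, 20.0 and 15.2%. Open chromatin was at 40.1, 52.1 and 47.3% of the windows of both orders in the 3 WT libraries, 40.04, 49.99 and 46.4% with H3K4me3 first only, and 29.5, 37.8 and 34.0% with H3K27me3 first only. Windows with H3K27me3 first only were thus the least often open in each of the 3 libraries.

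**Figure D4:**
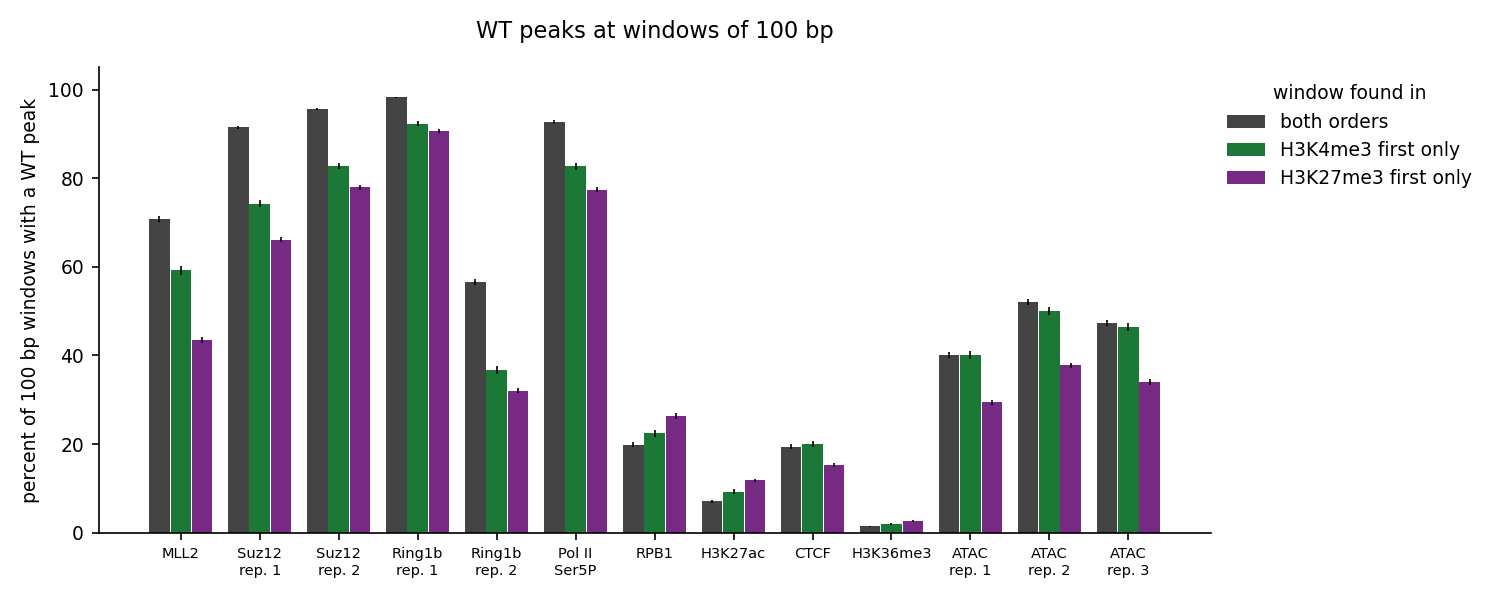
Percent of 100 bp windows with a WT peak of each factor, for windows of both orders (grey), H3K4me3 first only (green) and H3K27me3 first only (purple), with exact 95% intervals; rep. 1 and 2 are experiments 1 and 2. MLL2 falls across the classes (70.9, 59.2 and 43.6%), as do Suz12 and Ring1b, while RPB1, H3K27ac and H3K36me3 are lowest at windows of both orders.

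The KO lists were then read at the same domains, to ask how the chromatin found by re-ChIP fares without MLL2. An H3K4me3 peak lay at 64.1 and 55.1% of the 14041 domains in the KO libraries, against 92.7 and 91.7% in the WT libraries. Both KO libraries lay below both WT libraries, by 32.6 points on average (exact permutation p = 0.333, the smallest that 2 against 2 libraries can give). The domains were themselves found with an H3K4me3 antibody, in cells of WT or unknown status. A high WT share thus came with their selection and left KO little room to be higher, so this difference alone does not measure loss. The share of WT H3K4me3 peaks with no KO peak was 29.3 and 37.8% for peaks holding a domain, against 36.2 and 37.1% of all WT H3K4me3 peaks, so it was below the share of all peaks in experiment 1 and close to it in experiment 2. Peaks were not matched on score or width for this. In the V6.5 regions below, read at like score, KO shares were lower with domains of both orders than without a domain. At domains of both orders 77.7 and 64.9% had an H3K4me3 peak in KO and 99.6% in each WT library. At domains with H3K27me3 first only the shares were 51.1 and 44.4% in KO, and 85.7 and 83.6% in WT.

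H3K27me3 moved the other way within each experiment. It was at 96.1 and 51.5% of the domains in KO and at 79.3 and 38.9% in WT, a difference of 16.8 points in experiment 1 and 12.6 points in experiment 2. The groups overlapped (exact permutation p = 0.667), because the experiments differed by more than the genotypes. The KO list of experiment 1 held 31018 H3K27me3 peaks, against 19819 in WT, but when every library was cut to the same number of its best peaks the differences were 16.5 and 12.3 points. WT H3K27me3 peaks that hold a domain lacked a KO peak in 0.53 and 13.1% of cases, against 9.60 and 35.3% of all WT H3K27me3 peaks. Peaks were not matched on score or width for this. By class, in the order both orders, H3K4me3 first only and H3K27me3 first only, the differences were 6.58, 36.5 and 18.6 points in experiment 1 and 16.4, 12.7 and 9.74 points in experiment 2, so the classes ranked differently in the 2 experiments. The rise was not particular to places with a domain, as the regions without one show below.

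Suz12 was at 69.9 and 71.4% of the domains in KO and at 61.1 and 73.0% in WT, so the experiments differed in direction. Ring1b was at 81.1 and 57.8% in KO and at 87.1 and 28.6% in WT, with opposite directions, but its lists held 8841 and 4640 peaks in KO and 10118 and 2242 in WT. Cut to the same number of peaks, the Ring1b differences were 0.14 points in experiment 1 and 10.8 points in experiment 2. The opposite direction stayed at domains of both orders (-1.58 and 9.01 points). It was absent with H3K4me3 first only (1.60 and 8.77 points) and with H3K27me3 first only (0.98 and 12.7 points). Open chromatin was at 28.2, 37.4 and 38.7% in the KO libraries and at 35.2, 43.3 and 39.9% in the WT libraries. The groups overlapped, and the difference of -4.74 points did not pass (exact permutation p = 0.4, smallest possible 0.1). It was -2.84 points when every library was cut to the same number of peaks (exact permutation p = 0.3).

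**Figure D5:**
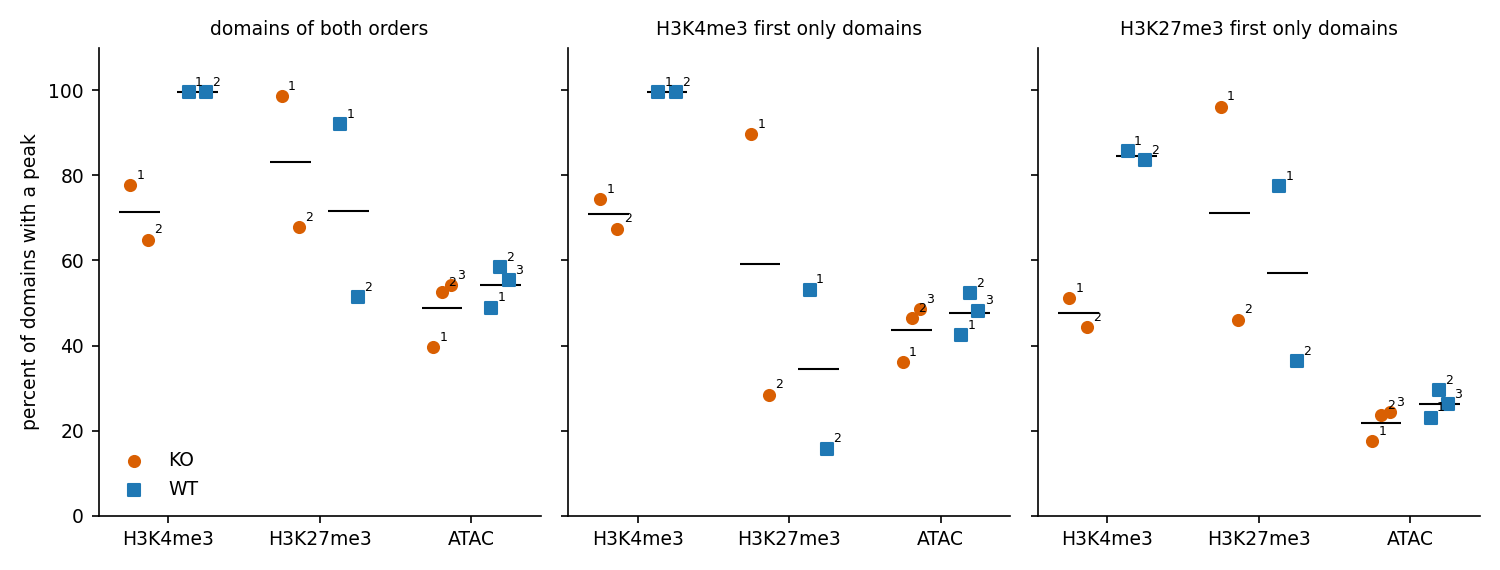
Percent of domains with a peak in each KO (orange circles) and WT (blue squares) library, numbered by replicate, with the group mean as a bar, for domains of both orders, H3K4me3 first only and H3K27me3 first only. H3K4me3 is lower in both KO libraries than in both WT libraries in each class, while H3K27me3 and ATAC shares overlap between the genotypes.

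Domains with a WT MLL2 peak had a larger share with H3K4me3 in KO than those without. This difference was not tested, and the classes were not matched on the strength of their H3K4me3 peaks. With an MLL2 peak, 86.5 and 76.9% had an H3K4me3 peak in KO, against 99.95% in each WT library. Without one, 46.0 and 37.5% did in KO, against 86.9 and 85.0% in WT. The same held at domains of both orders, with 86.7 and 74.9% in KO for those with an MLL2 peak and 60.5 and 45.9% for those without, where WT stood at 100 and 98.7% in each experiment. H3K27me3 at domains with an MLL2 peak was at 98.1 and 51.5% in KO and at 76.8 and 32.2% in WT, and at domains without one at 94.5 and 51.5% in KO and at 81.4 and 44.4% in WT.

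Since the WT lists of the conditional line had defined bivalency above, regions were also taken from the V6.5 WT lists and measured in the conditional line. Of 10240 regions bivalent in V6.5 WT, 4335 held domains of both orders and 3835 none. H3K4me3 was at 77.2 and 64.8% of those with domains of both orders in KO, and at 100% in each WT library. It was at 34.0 and 28.9% of those without a domain in KO, and at 89.0 and 82.5% in WT. The gap between the classes was 43.2 and 35.9 points in KO and 11.0 and 17.5 points in WT, and it was 25.3 points wider in KO (exact permutation p = 0.333, the smallest possible). The widening was not seen with lists of equal length: cut to the same number of peaks, KO minus WT was -30.0 points at regions with both orders and -31.1 points at those without a domain. The classes differed in H3K4me3 strength, with median V6.5 peak scores of 3100 for both orders and 244 for no domain. Among regions scored between 290 and 1216 in V6.5 WT, KO shares were 28.2 and 14.9% for the 645 regions with both orders and 42.8 and 32.7% for the 1125 without a domain, so at like score the direction turned. Between 1216 and 3100 they were 86.9 and 74.6% for 3564 regions, and 93.8 and 92.2% for 593. For H3K27me3, mean KO minus WT was 5.96 points at regions with both orders and 17.2 points at those without a domain. With equal numbers of peaks it was 8.43 and 8.34 points. Regions with both orders had less room to rise, with WT shares of 98.0 and 66.5%, against 55.7 and 15.3% without a domain.

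The catalytic-dead cells are another line with 1 library per mark and genotype, so no test was possible. H3K4me3 was at 80.4% (79.7 to 81.0) of the 14041 domains in CD cells and at 94.0% (93.6 to 94.4) in V6.5 WT cells. The difference was -13.6 points, and -10.3 points with equal numbers of peaks. At domains of both orders the shares were 94.2% in CD and 99.5% in WT, and with H3K27me3 first only 67.7% in CD and 88.4% in WT. WT H3K4me3 peaks that hold a domain lacked a CD peak in 14.7% of cases, against 41.8% of all V6.5 WT H3K4me3 peaks. Strength was not matched here. V6.5 WT regions with H3K4me3 only had a median score of 3100 with domains of both orders and 316 with none. H3K27me3 was at 81.2% (80.6 to 81.9) of the domains in CD and at 83.1% (82.5 to 83.7) in WT. WT H3K27me3 peaks that hold a domain lacked a CD peak in 12.5% of cases, against 36.7% of all, again without matching on score or width.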

How the data were processed

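Per the labels' protocols, re-ChIP used the Re-ChIP-IT kit with Diagenode H3K4me3 and Millipore H3K27me3 antibodies. Per the submitters' processing notes, reads were aligned with Bowtie to mm9. The authors deposited, per order, 100 bp windows with a normalized score of at least 1.0 (per the file headers). How the IgG arms entered, and whether windows were limited to peaks, is not given in the sources used here. The authors' peak lists hold a MACS score per peak. RNA was deposited by the authors as FPKM and used for markers only.

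Windows were read with coordinates from 1, and 5 on the mitochondrial genome were left out. Touching windows were merged, and overlap means at least 1 bp. Shares have exact 95% intervals, and KO minus WT was tested over libraries by exact 2-sided permutation. Interval code was tested on simulated data. Regions named are the 5 widest domains of both orders, the 3 widest of each single order, the 3 top windows of each order and the fullest 100 kb bins. Members and lists were chosen with earlier results of these data known. The labels do not say that replicates were separate cultures, so p-values measure the spread between these libraries. Python 3.11.15, pandas 2.3.3, numpy 2.4.6 and scipy 1.17.1 were used.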

Additional observations from a re-analysis of the deposited data

Results flagged for a closer look

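The H3K27me3 share at domains of either order differed in direction between the knockout and the catalytic-dead comparison. KO minus WT was 16.8 points in experiment 1 and 12.6 points in experiment 2, while CD minus V6.5 WT was -1.87 points. The difference between the comparisons was not tested, and line, feeders, allele and drug treatment all differ between them, so these cannot be told apart.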

How the results depend on the processing

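Of 155 recomputed values for 12 results, 114 kept their side or stayed within the error, 38 moved beyond it and 3 turned direction. The 114 overstate stability where the error was wide. The shares with both marks had an SD of 30.1 and 28.6 points over the 2 experiments. All 14 alternatives of each counted as kept, though they ran from 39.1 to 86.5% and from 37.7 to 81.9%. Sharing moved with score, joining, width and list length. With windows scored at least 1.5 the shared windows were 55.1% of the H3K4me3-first and 44.8% of the H3K27me3-first list, shared domains 61.9 and 46.8%, and with at least 2 they were 44.5, 39.2, 51.5 and 42.9%. At these scores the bivalent regions with an H3K4me3-first or H3K27me3-first domain were 44.8 and 51.8%, and 31.7 and 35.03%. Cutting both lists to the same number of windows, they shared 54.2% of windows, and 58.6 and 52.7% of domains. Bridging gaps up to 100 bp gave 67.8% of H3K4me3-first domains, 500 bp gave 72.5 and 49.4%, and 1000 bp gave 74.5 and 54.8%. Domains of at least 200 bp gave 73.2 and 52.6%, of at least 500 bp 69.1 and 56.7% (30.3 and 33.8% of bivalent regions), and an overlap of at least 0.5 of the width 58.4 and 33.9% (6.74 and 10.8%). The top-scoring peaks of each list raised the bivalent shares to 82.8 and 89.7%, and V6.5 WT lists gave 57.8% with H3K27me3 first. The median width difference of 100 bp became 0 bp with gaps of 500 bp, scores of 1.5 or 2 and domains of 500 bp, and -100 bp with gaps of 1000 bp; the cause was not tested.

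Leaving out 1 library moved the H3K4me3 difference between -37.1 and -28.1 points, the ATAC difference between -6.86 and -1.44 points and the H3K27me3 difference between -7.60 points (without KO replicate 1) and 37.0 points; without WT replicate 2 it was -5.52 points. Each such H3K27me3 value sets libraries of different experiments against each other. With 1 experiment left out, both marks were at 39.1 to 81.6% of H3K4me3-first and 37.7 to 78.2% of H3K27me3-first domains, and bivalent regions with a domain were 50.9 to 71.9% and 63.2 to 83.3%. Under the replicate block, which pairs libraries of the same number, the differences stayed at -32.6 points for H3K4me3 and 14.7 points for H3K27me3 (exact sign-flip p = 0.5 each, the smallest possible) and -4.74 points for ATAC (exact p = 0.25, the smallest possible), with no call changed. ATAC libraries of the same number did not deviate together, at correlations of 0.067, -0.019 and -0.019, so those numbers were not read as pairs. The alternative without domains at an MLL2 KO peak was chosen after seeing the data. A minimum count per window was not run, because the lists carry a score and no count. Depth is unknown, so a domain missing in 1 order was not detected at that threshold and may be present below it.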
